A study of Mus musculus with 22 samples.

Results

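Gamma-secretase inhibitor (GSI) was compared with its solvent DMSO after 10 h of culture in haematopoietic stem cells sorted from mouse fetal liver. The comparison used 8 of the 22 arrays of the series, 4 with DMSO and 4 with GSI, chosen by their titles and joined into 4 pairs by replicate number. All 8 samples came from wild-type C57Bl/6J embryos at stage E14.5. Liver cells were kept on OP9-DL1, a mouse bone marrow stromal line that displays the Notch ligand Delta-like 1, with 1 µM GSI or with DMSO. Stem cells were sorted after the culture as SLAM LSK cells, which lack lineage markers, carry Kit and Sca-1 and are gated on SLAM family proteins. Stroma was thus present in both groups, and the inhibitor reached every cell of the culture and not the stem cells alone. How many embryos entered a replicate is not given in the sources used here.

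Notch receptors are cut by gamma-secretase after a ligand binds, and the freed intracellular part joins the DNA-binding protein RBPJ and the Mastermind co-activators to switch on targets such as Hes1. Gamma-secretase also cuts many other membrane proteins, so the inhibitor is not specific to Notch. In the embryo Notch is required for stem cells to form, and on Delta-like 1 stroma it drives progenitors towards the T lineage.

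The values were log2 RMA levels of 22180 genes, and a difference is GSI minus DMSO, averaged over 4 pairs, with the standard error (SE) of limma's fit. Levels of different genes come from different probes and are not compared with each other. Values ran from 1.83 to 13.72, the median of all probes lay between 4.45 and 4.52 on the 8 arrays, and any 2 arrays correlated at 0.964 to 0.992. Codes in the sample descriptions put pairs 1 and 2 in 1 run and pairs 3 and 4 in another, and what a run stands for is not stated. The single-pair differences had an SD over genes of 0.390, 0.314, 0.273 and 0.402, so pairs 1 and 4 were the most widely spread.

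The sorted cells were checked against genes of the gate, Kit, Slamf1 and Cd48, and against Cd34 and Ptprc, which blood progenitors carry. Kit, the stem cell factor receptor, had levels of 8.86, 9.75, 9.30 and 8.65 with DMSO and 9.45, 9.72, 9.32 and 8.70 with GSI. Cd34, a surface sialomucin of progenitors, had levels of 9.40 to 10.15 and 10.38 to 10.44. Ptprc, the pan-leukocyte antigen CD45, ranged from 8.44 to 9.36 with DMSO and from 9.12 to 9.34 with GSI. Slamf1, the SLAM marker CD150, was at 4.48 to 5.14 and 4.76 to 5.24, close to the median probe of the arrays, so the array gives little evidence for this marker. Cd48, which the usual SLAM gate excludes, ranged from 5.79 to 7.37 with DMSO and from 6.30 to 7.09 with GSI. Ly6a, which encodes Sca-1, was not analysed here.

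The sequences below show where the core letters bound by RBPJ stand in front of 3 genes, all taken from those with a match. Each of the 3 differed by at least 0.5 in every pair, and Hes5, a Notch target whose mean hardly differed, is printed beside them. The sequences are from RefSeq, mouse build GRCm38.p6, printed 5′ to 3′ on the gene's own strand and ending at the base before the annotated start. Capitals mark the motif TGGGAA or its reverse complement TTCCCA, the single motif searched, on both strands. Nqo1 (chr8:107403206-107403355, minus strand) had 1 match, whose first base was 113 bases before the start. Slc35d3 (chr10:19851460-19851609, minus strand) had 1 match at 39 bases before the start. Il12a (chr3:68690494-68690643, plus strand) has 2 annotated starts, and its 1 match lay 62 bases before the downstream start and after the upstream one, with the stretch shown ending at the downstream start. Hes5 (chr4:154960673-154960922, plus strand) had 2 matches, at 226 and 82 bases before the start.
Nqo1: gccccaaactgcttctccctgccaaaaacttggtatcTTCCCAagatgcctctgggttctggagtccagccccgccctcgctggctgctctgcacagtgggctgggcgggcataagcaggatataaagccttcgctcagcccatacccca
Slc35d3: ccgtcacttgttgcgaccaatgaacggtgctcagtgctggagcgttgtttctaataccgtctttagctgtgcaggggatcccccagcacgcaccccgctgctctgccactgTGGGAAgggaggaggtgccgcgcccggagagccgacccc
Il12a: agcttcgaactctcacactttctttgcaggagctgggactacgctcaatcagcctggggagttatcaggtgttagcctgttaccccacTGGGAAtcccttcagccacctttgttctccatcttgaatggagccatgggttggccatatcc
Hes5: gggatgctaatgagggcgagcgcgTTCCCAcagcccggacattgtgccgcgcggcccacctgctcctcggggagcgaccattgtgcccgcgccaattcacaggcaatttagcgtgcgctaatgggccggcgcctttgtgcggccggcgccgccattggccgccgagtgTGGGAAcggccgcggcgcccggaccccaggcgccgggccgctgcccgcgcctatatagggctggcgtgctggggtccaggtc
Counted over windows of 300 bases, from 250 before to 50 after a start, 25.6% of 32851 windows in the RefSeq table held the motif, and 3.79% held 2 or more. It was present for 27.3% of the 16990 measured genes with a window. Among the genes at least 0.5 lower in every pair it was present for 2 of the 5 with a window, and among those at least 0.5 higher for 5 of 20. Emp1, Pla2g7, Flt3, Kcnk5 and Rnf19b were among those without the motif, and Tmem43, whose sequence is not printed, held 2 matches. A match of 6 letters is a description and does not show binding. Hes1 and Plxdc2 are named only.

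The comparison asks which transcripts of fetal liver stem cells differ after 10 h with the gamma-secretase inhibitor. Hes1, a transcriptional repressor and the classical Notch target, fell, and Plxdc2, a transmembrane protein with a plexin domain, rose. They were the 2 of 22180 genes (0.00902%) that passed limma at an adjusted p under 0.05. At an unadjusted p under 0.05 there were 1864 genes, 1055 higher and 809 lower with GSI, where 1109 would be reached by chance. The median difference over all genes was -0.01. The gene with the third smallest p, Il12a, had a limma adjusted p of 0.114.

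**Figure D1:**
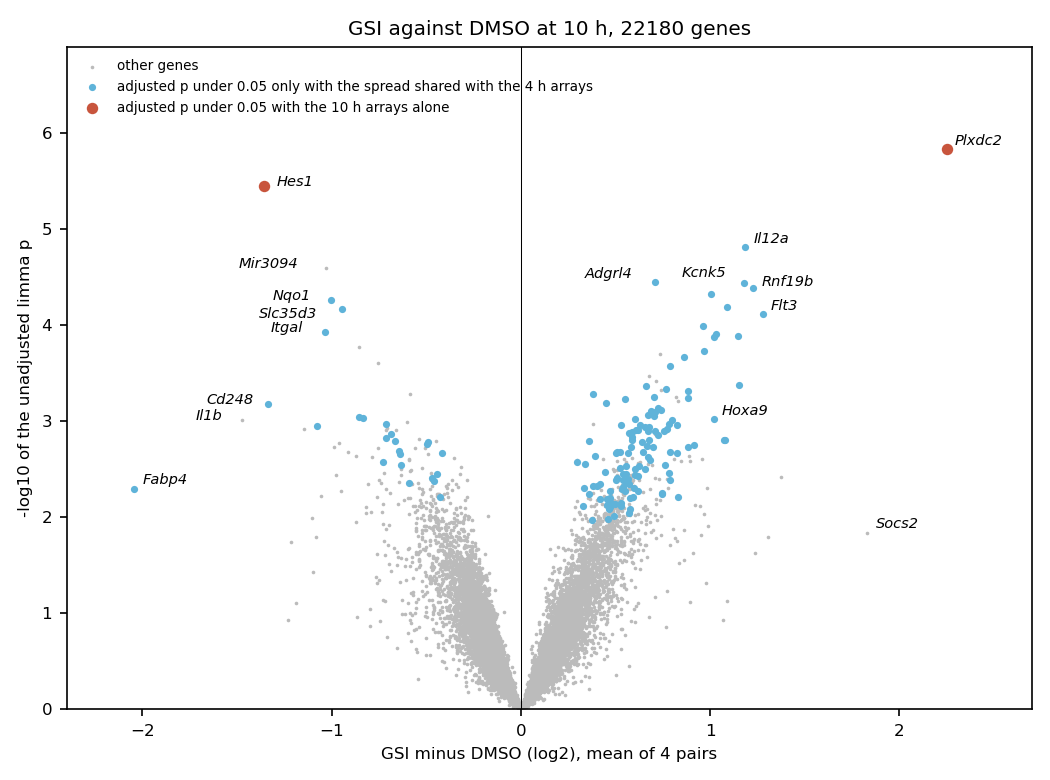
Difference between GSI and DMSO at 10 h (log2, mean of 4 pairs, horizontal axis) against the -log10 of the unadjusted limma p (vertical axis) for 22180 genes. Red points, Hes1 at -1.36 and Plxdc2 at 2.25, passed with the 10 h arrays alone, and blue points are the other genes that passed when the spread was shared with the 4 h arrays.

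Hes1 (Entrez 15205, chromosome 16) had levels of 6.61, 6.54, 6.79 and 6.56 with DMSO and 5.25, 5.33, 5.27 and 5.21 with GSI. Every GSI array was below every DMSO array, and the spread within each group, an SD of 0.113 and 0.050, was small beside the gap. Hes1 fell by 1.36 ± 0.134 (SE, n = 4 pairs) on the log2 scale, a 2.56-fold change (limma adjusted p = 0.0389). The 4 pairs gave -1.36, -1.21, -1.52 and -1.34, which is the narrowest range of the described genes with a mean beyond 1. Plxdc2 (Entrez 67448, chromosome 2) had levels of 5.02, 5.51, 5.63 and 5.46 with DMSO and 8.03, 7.61, 7.75 and 7.23 with GSI, again without overlap. It rose by 2.25 ± 0.200, a 4.75-fold change (limma adjusted p = 0.0321), with pair differences of 3.01, 2.10, 2.12 and 1.77.

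Both calls depended on which pairs were fitted. Without pair 2, pair 3 or pair 4 limma called 0 genes, against 1856, 1737 and 1400 at an unadjusted p under 0.05, and without pair 1 it called Plxdc2 only. Without 1 pair the difference of Hes1 stayed between -1.41 and -1.30 (adjusted p 0.0939 to 0.427) and that of Plxdc2 between 1.997 and 2.41 (adjusted p 0.0305 to 0.266). With a robust prior Hes1 had a limma adjusted p of 0.0516 and Plxdc2 of 0.0340. Within run 1 Hes1 differed by -1.28 and Plxdc2 by 2.55, and 0 genes passed limma (1217 at an unadjusted p under 0.05). Within run 2 they differed by -1.43 and 1.95, and 15 genes passed, Hes1 and Plxdc2 among them. Besides Hes1, Bgn, Cd248, Fabp4 and Ngp were lower within run 2. Besides Plxdc2, Socs2 (3.40), Ccl12 (2.54), Mir5123, Lipg, Tnip3, Rps15, Rnf24, Il12a and Saa3 were higher. With 2 pairs per run these fits leave 1 residual degree of freedom.

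When the 4 h arrays were added to the fit so that both times shared 1 estimate of the spread, 148 genes (0.667%) passed limma, 123 higher and 25 lower with GSI. Of these, 147 had moved the same way in all 4 pairs at 10 h, which is no separate support, because the same pairs gave the calls. The differences themselves are those of the 10 h arrays, and only the error changed. Below, a gene is said to pass with the shared spread where it is among these 148. Counts of such genes in a list are to be read against 123 higher and 25 lower of all 22180 genes. Without any test, 1878 genes (8.47%) were higher with GSI in 4 of 4 pairs and 1819 (8.2%) were lower. At least 0.5 higher in each pair were 25 genes (0.113%), and at least 0.5 lower in each pair were 8 genes (0.0361%). Of the 22180 genes, 312 had every GSI array above every DMSO array and 291 had every GSI array below. A lack of overlap given for a gene below is to be read against these numbers. An exact sign-flip test over 4 pairs cannot go below a p of 0.125, so these counts are descriptions.

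**Figure D2:**
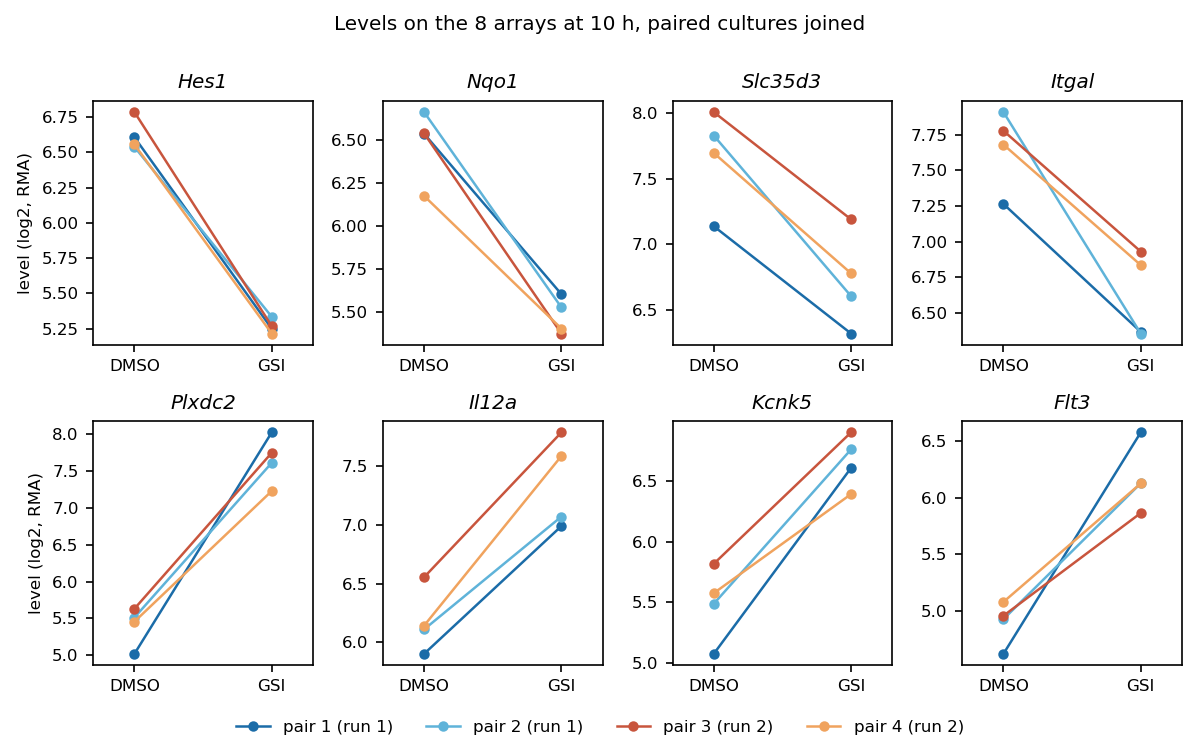
Levels (log2 RMA, vertical axes differ by panel) of 8 genes on the 8 arrays, with the DMSO and GSI culture of each pair joined. Every line of the top row goes down and every line of the bottom row goes up, and Hes1 has the closest bundle, from 6.54-6.79 to 5.21-5.33.

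Among the other Notch target genes no second member passed with either spread. Of 15 measured targets, 8 had a positive and 7 a negative mean difference, and none was higher in all 4 pairs. Hes1 alone was lower in all 4 (6.67%, against 8.2% of all genes). After cyclic loess or quantile normalization of the 8 arrays, 2 and 3 targets were lower in all 4, against 1695 and 1663 of all 22180 genes. The median difference of the 15 targets was 0.00, against -0.01 over all genes. Nrarp, a feedback inhibitor of Notch, had levels of 5.78, 5.88, 5.56 and 5.59 with DMSO and 5.87, 5.68, 5.31 and 4.94 with GSI, so the groups overlapped. It differed by -0.25 ± 0.155 and was lower in 3 pairs. The repressor genes Hey1 (0.00), Heyl (0.07) and Hes5 (-0.05) and the ubiquitin ligase gene Dtx1 (0.05) had differences within their SE of 0.126 to 0.300. The signs of these 4 small differences changed under at least 1 alternative. Levels of Dtx1, Heyl and Hes5 lay between 3.95 and 5.55 on all arrays, near the median probe, where a change could be missed. Myc, a growth regulator that Notch activates in T cells, differed by -0.06 ± 0.092. Ccnd1, which encodes cyclin D1, differed by 0.59 ± 0.203, with 1.33 in pair 1 and -0.04 in pair 2.

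The receptor genes did not pass with either spread. Notch1 differed by 0.17 ± 0.168, Notch2 by -0.04, Notch3 by 0.12 and Notch4 by 0.05, and none had the same sign in all 4 pairs. Notch1 had levels of 6.04 to 7.18 with DMSO and 6.57 to 6.94 with GSI, which overlap throughout. Among 7 ligand genes, Jag1 (-0.56 ± 0.164) and Dll4 (-0.30 ± 0.145) were lower in 4 of 4 pairs (28.6%, against 8.2% of all genes). Dlk1, a non-canonical ligand and imprinted gene, was higher in 4 of 4 (0.45 ± 0.130), and so was Jag2 (0.26), again 28.6%, against 8.47%. None of the ligand genes passed with either spread. Jag1 had its highest level, 6.62, on the DMSO array of pair 2, which also had the highest mean level of stromal markers, 6.62. In pair 1 Jag1 differed by -0.16, while the median of the stromal markers was 0.20. The part of stromal RNA in the difference of Jag1 was not tested.

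Of 22 genes for Notch modifiers, partners and turnover, 5 were higher in every pair (22.7%, against 8.47% of all genes) and 1 was lower. After cyclic loess or quantile normalization of the 8 arrays 3 were higher. Mfng, a glycosyltransferase that adds sugar to Notch receptors and alters their response to ligands, had levels of 6.00, 7.95, 7.61 and 6.89 with DMSO. With GSI it was at 7.57, 8.26, 7.99 and 7.61, higher in every pair although the groups overlapped. Its difference of 0.74 ± 0.206 passed with the shared spread (limma adjusted p = 0.0495) and not with the 10 h arrays alone (0.487). Rbpj differed by 0.21 on average, with 0.78 in pair 4 and 0.02 to 0.04 in the others. Adam10, the protease that makes the cut before gamma-secretase, differed by 0.18 ± 0.092. Among 6 gamma-secretase subunit genes, Aph1c (0.50), Psenen (0.40) and Ncstn (0.36) had positive means, and Psen2, a catalytic subunit, was at 0.02. Aph1c alone was higher in every pair (16.7% of the list, against 8.47% of all genes). The GSI level of Aph1c in pair 2, 5.85, lay above the 4.85 to 4.95 of the other pairs. Psenen is measured by a second probe, which differed by 0.75. Of 19 other proteins that the enzyme cuts, Csf1r (-0.53), Cxcl16 (-0.46) and Aplp2 (-0.27) were lower in all pairs and Cd44 (0.21) higher. Those lower were 15.8% of the list, against 8.2% of all genes. None of the subunit or substrate genes passed with either spread.

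After Plxdc2, the genes with the smallest p among those higher in every pair did not pass with the 10 h arrays alone. Il12a (Entrez 16159, chromosome 3), the p35 subunit of interleukin 12, had levels of 5.90, 6.11, 6.55 and 6.14 with DMSO and 6.99, 7.07, 7.79 and 7.59 with GSI. The groups did not overlap, and the difference was 1.19 ± 0.141 (limma adjusted p = 0.114). Kcnk5 (Entrez 16529, chromosome 14), a potassium leak channel, went from 5.07, 5.49, 5.82 and 5.57 to 6.61, 6.76, 6.91 and 6.39, a difference of 1.18 ± 0.156 without overlap (limma adjusted p = 0.130). Flt3 (Entrez 14255, chromosome 5), the receptor tyrosine kinase of multipotent and lymphoid progenitors, had levels of 4.62, 4.93, 4.96 and 5.08 with DMSO and 6.58, 6.13, 5.87 and 6.13 with GSI. Its groups did not overlap, and its difference was 1.28 ± 0.186, a 2.42-fold change (limma adjusted p = 0.142). The DMSO levels of Flt3 were close to the median probe, and the GSI levels were all above it.

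Rnf19b, an E3 ubiquitin ligase, had levels of 5.94, 6.91, 6.76 and 6.48 with DMSO and 7.53, 7.65, 7.91 and 7.91 with GSI (1.23 ± 0.165). Sdr39u1, of the short-chain dehydrogenase family, went from 5.90, 6.21, 6.72 and 6.24 to 7.24, 7.03, 7.55 and 7.60 (1.09 ± 0.155). Neither gene's groups overlapped. Tmem141 differed by 1.01, Tmem43 by 1.03, the zinc finger gene Zfp773 by 1.02 and Extl3, a glycosyltransferase of heparan sulphate synthesis, by 0.96. Tnip3, an inhibitor of NF-kB signalling, differed by 1.15 ± 0.179, with 0.81 and 0.75 in run 1 and 1.39 and 1.65 in run 2. Adgrl4, an adhesion G protein-coupled receptor, had the smallest SE of this group, 0.094, and differed by 0.71, from 9.91-10.56 to 10.73-10.98. All of these, and also Il12a, Kcnk5 and Flt3, passed with the shared spread, with limma adjusted p from 0.000146 (Il12a and Adgrl4) to 0.0231 (Rnf19b).

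On the lower side, the 8 genes at least 0.5 lower in every pair were Hes1, Emp1 (-1.08), Itgal (-1.03), Mir3094 (-1.03), Nqo1 (-1.002), Slc35d3 (-0.95), I830077J02Rik (-0.85) and Pla2g7 (-0.71). Nqo1 (Entrez 18104, chromosome 8), a quinone reductase and standard target of the oxidative stress factor Nrf2, had levels of 6.54, 6.66, 6.54 and 6.18 with DMSO and 5.60, 5.53, 5.38 and 5.40 with GSI. These did not overlap, and the difference was -1.002 ± 0.140 (limma adjusted p = 0.135). Itgal (Entrez 16408, chromosome 7) encodes a chain of the leukocyte integrin LFA-1 and went from 7.26, 7.91, 7.78 and 7.68 to 6.37, 6.36, 6.93 and 6.84, a difference of -1.03 ± 0.160 without overlap (limma adjusted p = 0.171). Slc35d3, a relative of nucleotide sugar transporters needed for platelet dense granules, had levels of 7.14, 7.83, 8.01 and 7.70 and then 6.32, 6.604, 7.19 and 6.78. Its groups overlapped by 1 array, because pair 1 was low throughout, and its difference was -0.95 ± 0.136 (limma adjusted p = 0.138). Nqo1, Itgal, Slc35d3 and Emp1 passed with the shared spread.

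Mir3094 is a microRNA gene on chromosome 4 whose probe had levels of 5.29, 4.75, 4.32 and 4.59 with DMSO and 4.51, 3.44, 3.19 and 3.69 with GSI. The difference was -1.03 ± 0.130 (limma adjusted p = 0.130, and 0.102 with the shared spread). Its GSI levels were at or below the median probe, and an array of total RNA does not separate the hairpin from its mature arms. The arms are shown so that their seeds, bases 2 to 8 in capitals, can be compared. They lie at chr4:40993696-40993716 and chr4:40993738-40993758 on the plus strand of GRCm38.p6 (RefSeq) and share no seed.
mmu-miR-3094-5p: uGUUGGGGacauuuuuaaagc
mmu-miR-3094-3p: cCUUUAAAuuguguccucaag

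Further genes were lower in every pair without passing with the 10 h arrays alone. Il1b, the inflammatory cytokine interleukin 1 beta, had levels of 7.63, 8.39, 8.504 and 9.18 with DMSO and 5.01, 6.83, 8.26 and 7.71 with GSI. Its pair differences ran from -2.63 in pair 1 to -0.25 in pair 3, and the mean was -1.48 ± 0.306 (limma adjusted p = 0.392). Mical1, an enzyme that oxidises actin, differed by -0.86, Parvb, a partner of integrin-linked kinase, by -0.83, the beta-tubulin gene Tubb3 by -0.75 and Plac8 by -0.59. Mical1 and Parvb passed with the shared spread.

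Transcription and chromatin factors of stem cells mostly had positive differences. Of 28 measured factors, 23 had a positive mean difference and 16 were higher in 4 of 4 pairs (57.1%, against 8.47% of all genes). Sox17 was the 1 member lower in 4 of 4 (-0.26). The median difference was 0.30, against -0.01 over all genes, and by pair it was 0.57, 0.14, 0.24 and 0.30. No member passed with the 10 h arrays alone. With the shared spread 7 of 28 passed upward, against 123 of all 22180 genes. The 7 were Hoxa9, Hlf, Mecom, Fli1, Mllt3, Etv6 and Erg. Pair 1 had the largest differences, and without it the median was 0.24. Markers of the OP9 stroma, described further on, had medians of 0.20, -0.85, -0.55 and -0.28 in the same pairs, so pair 1 had the highest median of both lists. The part of stromal RNA in the differences of the stem cell factors was not tested.

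Hoxa9, a homeobox factor of stem cell self-renewal, had levels of 5.53, 6.28, 6.71 and 6.34 with DMSO and 7.26, 7.52, 7.17 and 6.98 with GSI. The groups did not overlap, and the difference was 1.02 ± 0.210 (limma adjusted p = 0.392, and 0.0223 with the shared spread). Hlf, a leucine zipper factor largely restricted to stem cells within blood, went from 6.54, 6.81, 6.42 and 6.22 to 7.46, 7.90, 6.82 and 6.71 (0.73 ± 0.159). Its pair differences were about 1 in run 1, 0.92 and 1.09, and smaller in run 2, 0.40 and 0.49. Mecom, which encodes EVI1, went from 6.58, 7.34, 6.87 and 6.65 to 8.15, 8.04, 7.27 and 7.28 (0.82 ± 0.193), and its other probe differed by 0.63. Mllt3, a reader of acetylated histones that supports stem cell maintenance, differed by 0.54 and the ETS factors Fli1, Erg and Etv6 by 0.56, 0.58 and 0.47.

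Other factors were higher in every pair but did not pass with either spread. Ikzf2 (Helios) differed by 0.89 ± 0.216, without overlap between groups, with 1.79 in pair 1 and 0.34 to 0.81 in the others. Meis1, the DNA-binding partner of Hox factors, had 1.58 in pair 1 and 0.08 to 0.63 in the others, and Msi2, an RNA-binding regulator, had 1.23 in pair 1 and 0.24 to 0.33 in the others. Runx1 (0.21), Gata2 (0.34) and Lyl1 (0.32) were also higher in all 4 pairs. The factor list held members that hardly differed, such as Hoxb4 (0.00), Myb (-0.05) and Tal1 (0.12).

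**Figure D3:**
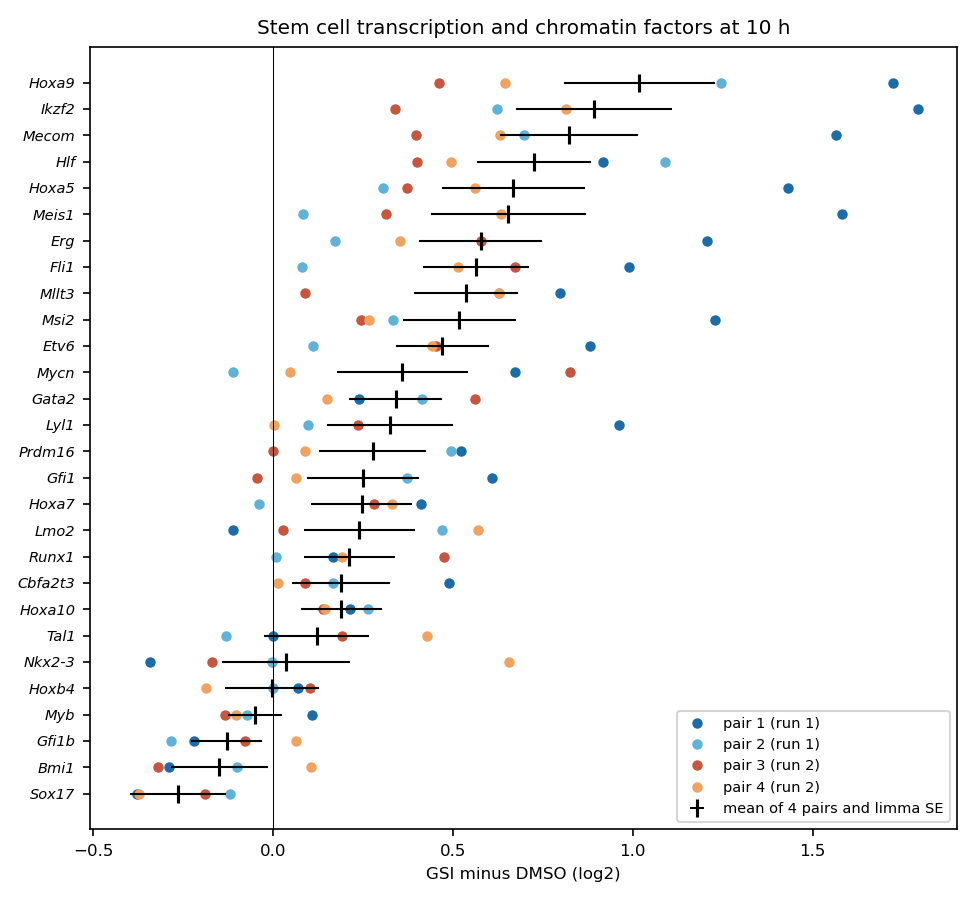
Differences between GSI and DMSO (log2, horizontal axis) for 28 stem cell transcription and chromatin factors. Coloured points are the 4 pairs and black bars the mean with limma's SE. Most genes lie right of 0, with Hoxa9 at 1.02, and the pair 1 points of Meis1, Msi2 and Ikzf2 stand far to the right of their other pairs.

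Surface markers of stem cells and progenitors were split. The list also held Flt3, given above as a receptor of multipotent and lymphoid progenitors, and Cd48, which the usual SLAM gate excludes. Of 17 measured, 4 were higher in every pair (23.5%, against 8.47% of all genes) and 2 lower (11.8%, against 8.2%). The median of 0.14 rested on pair 1 (0.49, against -0.02 to 0.01 in the other pairs) and was -0.04 without it. Besides Flt3, Cd34 differed by 0.46 ± 0.129 without overlap between groups. Its DMSO level in pair 1, 9.40, was below the 10.08 to 10.15 of the other pairs, while the 4 GSI levels ran from 10.38 to 10.44. Esam (0.42) and F11r (0.35), adhesion proteins of stem cells and endothelium, were also higher in every pair. Itga2b, the integrin CD41 of megakaryocytes and emerging stem cells, differed by -0.40 and Cd9 by -0.21. Kit, Slamf1, Cd48 and Ptprc differed by 0.14 to 0.23, with SEs of 0.125 to 0.171.

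Among 23 cytokine receptor genes of progenitors, Flt3 and Csf3r passed upward with the shared spread, against 123 of all 22180 genes. Csf3r, the receptor for granulocyte colony-stimulating factor, went from 5.57, 6.61, 7.57 and 6.82 to 7.00, 7.42, 8.14 and 7.54 (0.89 ± 0.166, limma adjusted p = 0.359, and 0.00817 with the shared spread). It was higher in every pair although the groups overlapped. Tnfrsf1a (0.42) and Cxcr4 (0.41), the receptor for the niche chemokine Cxcl12, were higher in 4 of 4 pairs. Csf1r (-0.53) and Ifngr1 (-0.30) were lower in 4 of 4.

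Among 32 integrin and adhesion genes, 8 were higher in every pair (25%, against 8.47% of all genes) and 4 lower (12.5%, against 8.2%). After cyclic loess 4 were higher and 4 lower, and after quantile normalization 3 and 4, so the higher genes no longer outnumbered the lower. Itgal and Parvb were lower as given above, with Itga2b and Itga4 (-0.20). Jam3 differed by 0.59, Itgb3 by 0.43, Itgam by 0.29 and Cd44 by 0.21. The members of the list thus differed in both directions, and the median was 0.06.

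Among feedback genes of JAK-STAT signalling, Socs2 varied widely over the pairs. This suppressor of cytokine signalling had DMSO levels of 4.60, 4.05, 4.13 and 3.89 and GSI levels of 3.99, 5.18, 6.77 and 8.05. Its pair differences of -0.61, 1.13, 2.64 and 4.16 gave a mean of 1.83 ± 0.604 that did not pass with either spread, and its other probe differed by 0.21. Within run 2 alone it differed by 3.40 and passed limma (adjusted p = 0.00135). Cish, the related suppressor, was higher in all 4 pairs, from 6.45, 6.42, 7.07 and 7.75 to 6.89, 7.06, 8.12 and 8.45. Its difference of 0.71 ± 0.143 passed with the shared spread (limma adjusted p = 0.0190), and its other probe differed by 0.15. Of 12 genes of this list, Cish alone was higher in every pair (8.33%, against 8.47% of all genes, so the list did not stand out).

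In the NF-kB and inflammatory list of 28 genes, Il12a and Tnip3 passed upward with the shared spread. Il1b and the chemokine gene Cxcl1 (-0.69) were lower in every pair, and the apoptosis inhibitor gene Birc3 (0.41) was higher in every pair. The median was 0.12, from -0.03 and -0.21 in run 1 and 0.30 and 0.35 in run 2. Interferon response genes were balanced over 31 genes, with medians of -0.42 and -0.31 in run 1 and 0.19 and 0.22 in run 2. Isg15, an interferon-induced ubiquitin-like protein, illustrates this with -1.56 and -0.39 in run 1 and 0.14 and -0.02 in run 2. Among 28 immediate-early genes the MAP kinase phosphatase Dusp6 was lower in every pair (-0.44 ± 0.113) and passed with the shared spread (limma adjusted p = 0.0436), and its other probe differed by -0.11. The related phosphatases Dusp1 (-0.27) and Dusp5 (-0.29) were also lower in every pair, and Ier3 (0.24) was higher. Those lower were 10.7% of the list, near the 8.2% of all genes, and those higher were 3.57%, against 8.47%.

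The 6 lists of lineage genes had medians of -0.17 to -0.06, against -0.01 over all genes, with single genes in both directions. Early T-lineage genes, the fate that Notch drives on this stroma, had low levels, with a DMSO median of 3.84 over 16 genes. Of these, 4 were above 4.76, the median level of all genes. Thy1 differed by 0.39 and was higher in every pair, and Dntt (-0.18), Rag2 (-0.17) and Bcl11b (-0.11) were lower in every pair at levels near or below the median probe. B-lineage genes were similarly low, with 1 of 10 above the median level of all genes. Erythroid genes had a median of -0.17 over 21 genes, 18 of them with a negative mean and 3 lower in every pair (14.3%, against 8.2% of all genes), with Cpox, an enzyme of haem synthesis, at -0.35 without overlap. Gata1 (-0.19) was also lower in every pair, and Klf1 (-0.36) in 3. Nfe2 (0.21) was the 1 member higher in every pair (4.76%, against 8.47% of all genes). Of 14 megakaryocyte genes, Pf4, Itga2b and Gp6 were lower in every pair (-0.44, -0.40 and -0.34), which is 21.4%, against 8.2% of all genes. Itgb3 (0.43) was higher in every pair, and Gp9 (0.66 ± 0.207) was higher in 3. The megakaryocyte median was -0.69 in pair 1 and between -0.28 and -0.03 in the others. Of 21 neutrophil and monocyte genes 14 had a negative mean. In every pair 1 was lower, Ngp, and 1 higher, Csf3r (4.76% each, against 8.2% and 8.47% of all genes). Csf3r (0.89) was the 1 member that passed with the shared spread. Ngp, a granule protein, had the largest difference, -1.15 ± 0.246, with -0.48 and -0.61 in run 1 and -1.50 and -1.99 in run 2. Of 13 mast cell genes 11 had a negative mean and 3 were lower in every pair (23.1%, against 8.2% of all genes). Only 4 were above the median level of all genes, and Hdc, the histamine-forming enzyme, differed by -0.56.

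Genes of the cell cycle had small median differences. Replication genes had a median of 0.08 over 32 genes, with 7 higher in every pair (21.9%, against 8.47% of all genes), led by Gins2 (0.37) and Mcm3 (0.25), and 1 lower. After cyclic loess and quantile normalization the median was 0.00 and 0.01, with 5 higher and 3 lower under each. Mitosis genes had a median of 0.03 over 33, with 2 higher and 5 lower in every pair (15.2%, against 8.2% of all genes). These scalings turned the median to -0.05, with 2 higher under each and 11 and 8 of the 33 lower. Of all 22180 genes, 1695 and 1663 were lower in every pair under them. The kinetochore gene Ndc80 (0.49, without overlap) and Aurkb (0.33) were higher in every pair, and Prc1 (-0.27) and Kif20a (-0.25) were among the 5 lower. Cdkn2b, which encodes the cell cycle inhibitor p15, had levels of 5.81, 6.11, 5.56 and 5.72 with DMSO and 5.53, 5.30, 5.06 and 4.99 with GSI. It differed by -0.58 ± 0.145 and did not pass with either spread. Cdk4 (0.18) and Ccne1 (0.16) were higher in every pair. Of the Bcl2 family, Bcl2l11, the death-promoting protein BIM, went from 6.61, 7.12, 6.70 and 6.22 to 6.29, 6.05, 5.86 and 5.58. Its difference of -0.71 ± 0.158 passed with the shared spread (limma adjusted p = 0.0249). The protective Bcl2 (0.32) and Mcl1 (0.17) were each higher in some pairs only. Among 22 p53 targets Ei24 (0.43) was higher and Perp (-0.23) lower in every pair (4.5% each, against 8.47% and 8.2% of all genes).

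Stress and biosynthesis lists gave small differences with repeated signs. Of 33 genes of the unfolded protein and amino acid stress responses, 12 were higher in every pair (36.4%, against 8.47% of all genes) and 1, Ppp1r15a (-0.11), was lower, with a median of 0.17. The chaperone and folding genes Pdia6 (0.52) and Herpud1 (0.67) passed with the shared spread (limma adjusted p = 0.0250 and 0.0476). Sdf2l1 (0.54), Xbp1 (0.41), Hyou1 (0.24) and Hspa5 (0.18) were higher in every pair, while the stress-induced death factor Ddit3 differed by -0.15. The list's median was 0.09 after cyclic loess and 0.10 after quantile normalization of the 8 arrays, with 9 and 8 genes higher in every pair. The same scalings left the stem cell factors at 0.25 and 0.26, with 13 genes higher in every pair under each.

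Cholesterol genes had 17 of 19 positive means, led by Sc5d (0.51) and the regulator Srebf2 (0.34). The median was 0.16, but 0.08 and 0.09 after cyclic loess and quantile normalization. In every pair 4 genes were higher (21.1%, against 8.47% of all genes), which became 1 under each. Ribosomal protein genes had a median of 0.07 over 58 genes, 13 of them higher in every pair (22.4%, against 8.47% of all genes). Under these scalings the median became 0.01 and 0.04, with 8 and 6 higher in every pair. Rps15 stood apart, from 4.54, 4.59, 4.73 and 3.79 to 6.10, 4.86, 6.05 and 5.24 (1.15 ± 0.211), and passed with the shared spread (limma adjusted p = 0.0436), as did Rpl32 (0.33). Ribosomal protein genes have many near-identical pseudogenes, so the source of the signal at such a probe is uncertain.

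Other lists were near the median of all genes. Fetal stem cell and imprinted growth genes had a median of 0.08 over 14 genes, with Hmga2, a chromatin protein of fetal stem cells, at 0.62 ± 0.202 and higher in every pair. Plagl1 was at -0.71 and lower in every pair, but its other probe differed by -0.01. Myc and ribosome biogenesis genes had a median of 0.02 over 34 genes, which turned to -0.06 and -0.04 after cyclic loess and quantile normalization, and Odc1, the polyamine enzyme, differed by -0.30. Glycolysis and hypoxia genes had a median of -0.03 over 27 genes. Car9 (0.51), Pfkl (0.32), Pgam1 (0.23) and Pgk1 (0.14) were higher in every pair (14.8%, against 8.47% of all genes). Pfkp (-0.30) was lower in every pair (3.7%, against 8.2%). Under these scalings 2 and 1 genes of the list were higher in every pair.

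Among 19 Nrf2 targets, 5 were lower in every pair (26.3%, against 8.2% of all genes) and 2 higher. Besides Nqo1 these were Slc7a11, the cystine transporter (-0.87 ± 0.206), Gstp3 (-0.73), Gsta4 (-0.27) and Gclc (-0.14). Gstp3 passed with the shared spread (limma adjusted p = 0.0436) and has near-identical relatives. Slc7a11 had levels of 5.56, 6.81, 6.34 and 5.91 and then 5.19, 5.25, 5.86 and 4.82, and its other probe differed by -0.34. Hmox1 differed by -0.18 with a mixed sign over pairs. The list's median was -0.10, and after cyclic loess or quantile normalization 6 were lower in every pair and 0 higher.

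**Figure D4:**
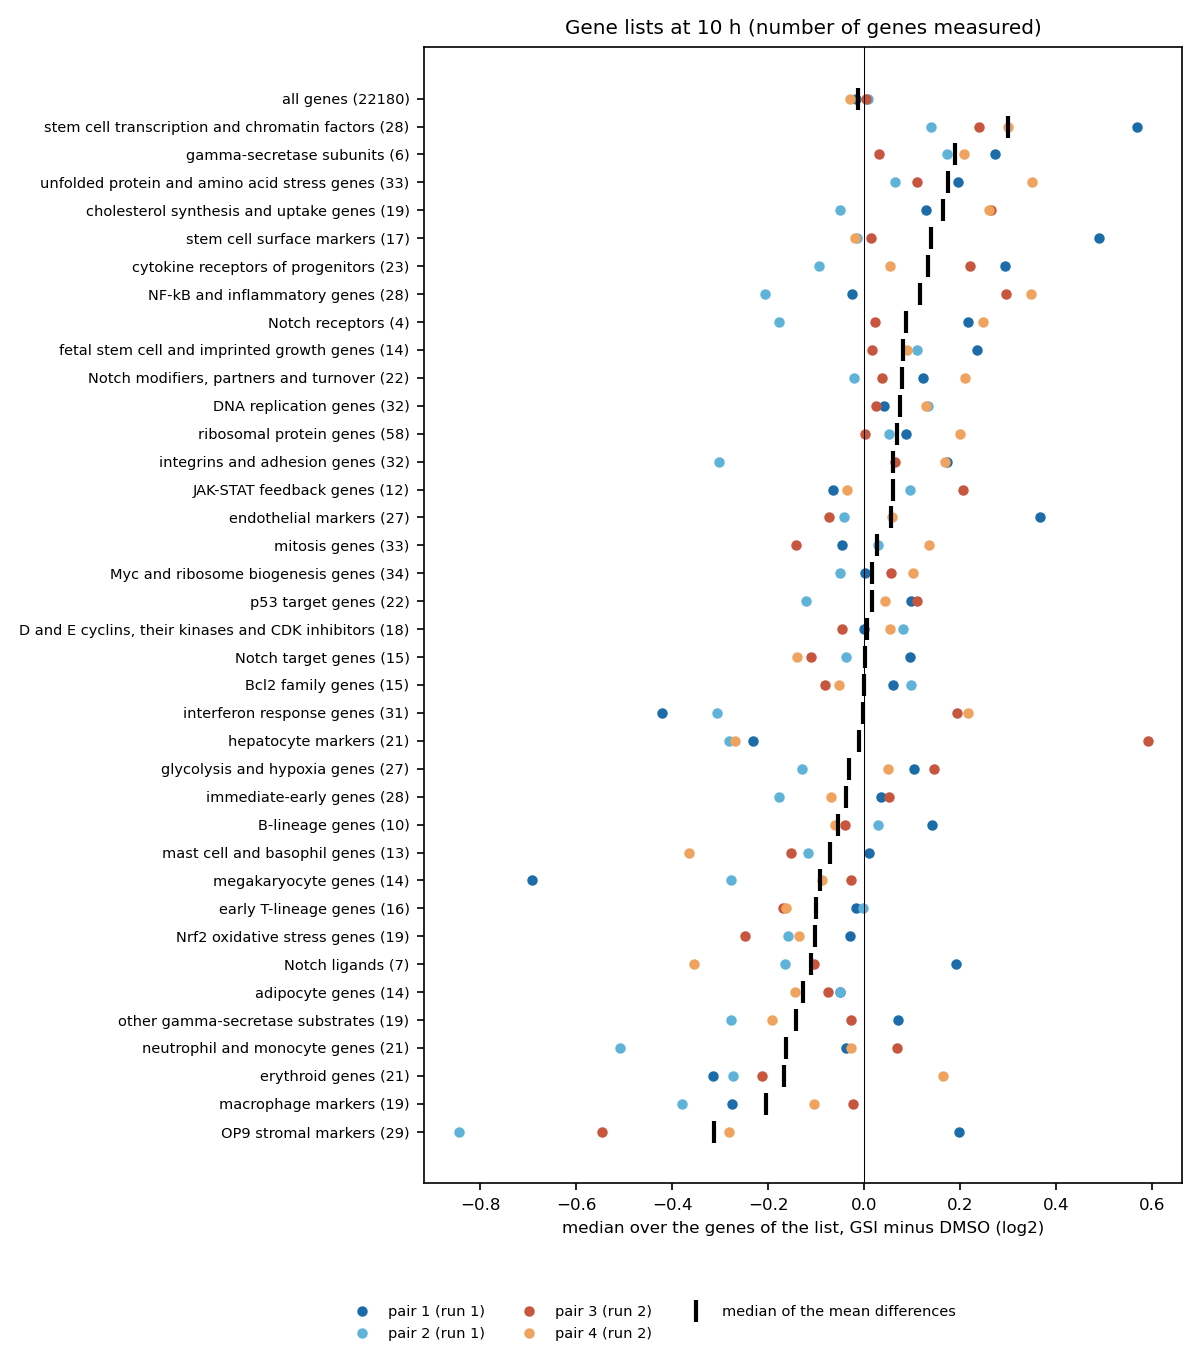
Median difference between GSI and DMSO (log2, horizontal axis) of 37 gene lists and of all genes, with the number of genes measured in brackets. Coloured points are the 4 pairs and black bars the median of the mean differences. Stem cell factors (0.30) stand highest and stromal markers (-0.31) lowest, and the interferon list has its run 1 pairs at -0.42 and -0.31 and its run 2 pairs at 0.19 and 0.22.

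The sorted samples also carried signal of genes that mark other cells of the culture. Of 29 markers of OP9 stroma, 27 had a negative mean and 5 were lower in every pair (17.2%, against 8.2% of all genes). Their median was -0.31. In these bulk samples fewer cells of a type and less RNA per cell cannot be told apart. The medians by pair were 0.20, -0.85, -0.55 and -0.28, so pair 1 went against the other 3, and without it the median was -0.55. The mean level of the list was 5.73, 6.62, 5.64 and 5.26 on the DMSO arrays and 5.94, 5.85, 4.95 and 4.90 on the GSI arrays. RMA levels have no zero, and 21 of the 29 markers were above 4.76, the median level of all genes. Cd248, a stromal glycoprotein, had levels of 6.92, 6.47, 7.03 and 6.78 with DMSO and 5.74, 6.19, 5.03 and 4.92 with GSI (-1.33 ± 0.261) and passed with the shared spread (limma adjusted p = 0.0391). Col1a2 (-1.10), Lox (-0.76) and Bgn (-0.80) were lower in 3 pairs and higher in pair 1, and the other probe of Col1a2 differed by -0.23.

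Fabp4, a fatty acid binding protein of fat cells, macrophages and endothelium, had the most negative difference of all genes described here. Its levels were 8.46, 7.56, 6.89 and 7.94 with DMSO and 7.29, 7.22, 4.87 and 3.31 with GSI. The pair differences were -1.18, -0.34, -2.03 and -4.63, the mean was -2.04 ± 0.553, and it passed with the shared spread at a limma adjusted p of 0.0495. Other adipocyte genes did not share this size. Plin2 (-0.20) and Pparg (-0.15) were lower in every pair, Fasn (0.35) higher, and the median of 14 genes was -0.13.

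Macrophage markers were lower in every pair for 8 of 19 genes (42.1%, against 8.2% of all genes) and higher in every pair for 2, Cd68 (0.47) and Cd5l (0.19). The median was -0.20, and after cyclic loess or quantile normalization 6 were lower in every pair and 1 higher. Spic, the factor of red pulp and iron-recycling macrophages, had levels of 5.47, 6.63, 5.39 and 4.79 and then 4.83, 4.56, 4.99 and 4.00 (-0.98 ± 0.249). Axl, a receptor for dying cells, differed by -0.58 without overlap, and Csf1r by -0.53. The mean level of the list was 4.95 to 5.71 on the DMSO arrays and 4.86 to 5.26 on the GSI arrays. Above the median level of all genes, 4.76, were 14 of 19 markers. Nqo1, Il1b, Csf1r and Ngp moved in the same direction as these lists, and the part of stroma or macrophages in their differences was not tested.

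Endothelial markers were split by gene. Of 27, 8 were higher in every pair (29.6%, against 8.47% of all genes) and 4 lower (14.8%, against 8.2%). Adgrl4, Afap1l1 (0.73), Calcrl (0.53) and Mmrn1 (0.82) passed upward with the shared spread, against 123 of all 22180 genes. Eng (0.48), Egfl7 (0.39), Esam and Tie1 (0.39) were also higher in every pair. Cldn5 (-0.59), Stab2 (-0.40), Flt4 (-0.36) and Kdr (-0.30) were lower in every pair, and Lyve1 (-0.73) in 3. Several of the higher ones, Adgrl4, Calcrl, Eng and Esam among them, are also made by stem cells. The mean level of the 27 markers ranged from 6.03 to 7.26 with DMSO and from 6.10 to 7.11 with GSI, so no common shift was seen. Of 21 hepatocyte markers 8 were above the median level of all genes, 4.76, and none had the same sign in 4 pairs. Their medians were -0.28 to -0.23 in 3 pairs against 0.59 in pair 3. In pair 3 their mean level was 4.78 with DMSO and 5.68 with GSI.

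**Figure D5:**
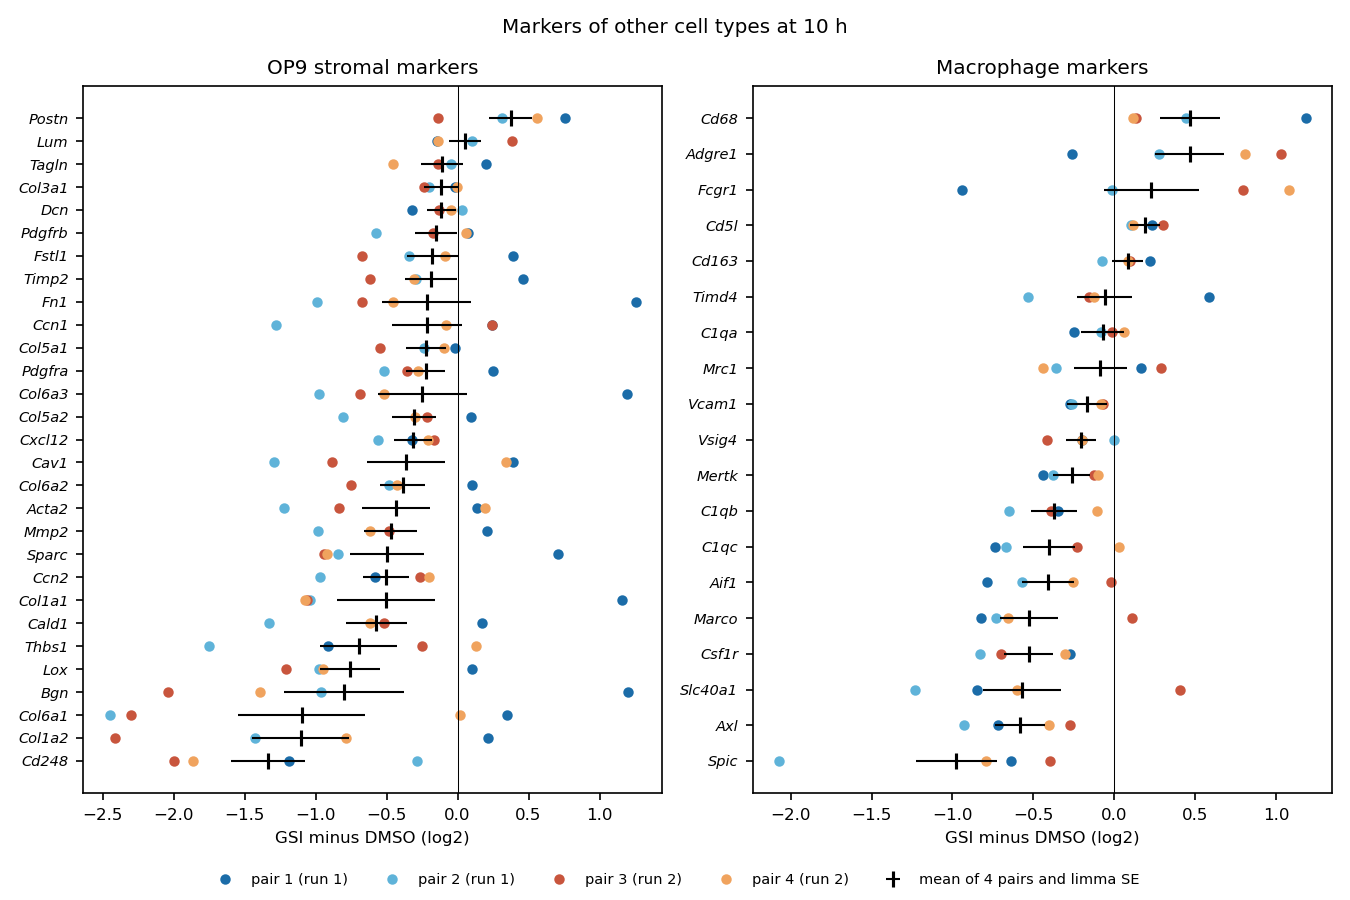
Differences between GSI and DMSO (log2, horizontal axis) for 29 markers of OP9 stroma (left) and 19 macrophage markers (right). Coloured points are the 4 pairs and black bars the mean with limma's SE. Pair 1 lies right of 0 for most stromal markers while the other pairs lie mostly left, and 8 macrophage markers, with Spic at -0.98, lie left of 0 in every pair.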

How the data were processed

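Gene expression was measured on 1-colour arrays in sorted fetal liver stem cells, with total RNA from a small-input kit per the labels' protocols. The deposited values are log2 levels that the authors made by RMA in Partek 6.6, per the submitters' processing notes. Whether the 4 h and 10 h arrays were normalized together is not given in the sources used here, so levels were not compared between times. The median of all probes was 4.45 to 4.52 on the 10 h arrays and 5.03 to 5.12 on the 4 h arrays. The fit with the shared spread and the choice of probe used both sets of arrays. RMA borrows strength across arrays and evens out their distributions, which shrinks differences of dim probes. Detection calls were not used here. Precision is limited by the number of arrays.

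The table has 41345 probes, of which 23521 had 1 gene symbol, 1814 several and 16010 none. Where a gene had several probes, the brightest by its mean across the 22 arrays was kept, which left 22180 genes, and no gene was removed for low signal. Symbols and chromosomes come from the array's annotation table and RefSeq (GRCm38.p6).

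The effect of GSI was estimated from the 8 arrays at 10 h with limma 3.58.1 in R 4.3.3 (lmFit, and eBayes with an intensity trend), with the pair as a fixed block. P-values are 2-sided, and Benjamini-Hochberg adjusted over all 22180 genes with a threshold of 0.05. The pairing comes from the series' design text, by which each biological replicate held a DMSO and a GSI sample. As a check, deviations of paired arrays from their group means correlated at 0.213, 0.435, 0.370 and 0.449, and each DMSO array correlated best with its own partner. No 2 arrays shared more than 24 identical gene values. The scripts were tested on simulated data.

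The 37 gene lists (801 of 883 entries matched) and the genes described were chosen with earlier results of these data known. The genes described are those that passed, the 12 in each direction with the smallest p among genes with 1 sign in all pairs, up to 3 per list with the smallest p, and a set of Notch, stem cell and earlier-described genes. Further list members are named as examples, chosen after their values were seen. Lists are described by counts and medians, without a test. A list count is read against the share of all genes that meets the same rule. After cyclic loess 1735 of 22180 genes were higher in every pair and 1695 lower. After quantile normalization these numbers were 1743 and 1663. There were 15 alternatives: no block, the spread shared with the 4 h arrays, no trend, a robust prior, 2 renormalizations, a filter on dim probes, 2 other probe choices, each run alone and each pair left out.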

Additional observations from a re-analysis of the deposited data

Results flagged for a closer look

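In groups of 4 arrays, 1 array stood apart from the other 3 in 13 of the 260 groups looked at, by the gap to its nearest neighbour over the whole range (Dixon's ratio). Chance alone gives about 1 in 20. Pairs 1, 2, 3 and 4 held 3, 3, 4 and 3 of the 13, so no pair dominated.

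With DMSO, Hes5 was at 5.55 in pair 4 against 3.95 to 4.21 elsewhere, which gave that pair its low difference. Cd34 was at 9.40 in pair 1 against 10.08 to 10.15, and Cpox was at 8.88 in pair 1 against 8.56 to 8.60. Dkc1 was at 9.42 in pair 3 against 8.92 to 8.97, and Mcpt4 was at 4.08 in pair 3 against 2.68 to 2.92. Gins2 was at 8.10 in pair 4 against 8.84 to 8.99, Tmem141 was at 3.89 in pair 4 against 4.39 to 4.43, and Sesn1 was at 7.40 in pair 2 against 6.88 to 6.94.

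With GSI, Afap1l1 was at 7.68 in pair 2 against 7.27 to 7.30 and Aph1c was at 5.85 in pair 2 against 4.85 to 4.95. Notch4 was at 5.79 in pair 1 against 5.14 to 5.23. Cpox was at 8.14 in pair 3 against 8.34 to 8.38, and Sdf2l1 was at 8.37 in pair 3 against 7.92 to 7.99.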

How the results depend on the processing

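The count of 2 genes (1 higher, 1 lower) became 148 (123 and 25) with the spread shared with the 4 h arrays, 1 (1 and 0) with a robust prior, 0 (0 and 0) within run 1 and 15 (10 and 5) within run 2. Leaving out 1 pair gave 0 to 1 genes in all, 0 to 1 higher and 0 lower. Without the replicate block the pairing was ignored and 2 genes passed, Hes1 and Plxdc2, and the same 2 passed with no trend, under both renormalizations, the dim filter and both other probe choices. The block changed no other call. The 3697 genes with 1 sign in all pairs became 2234 of 12055 after the dim filter, 11516 and 11754 within runs 1 and 2, where 2 pairs must share a sign, and 6144 to 6829 with 1 pair left out. The other settings gave 3406 to 3695. Of 1937 values of described genes under the alternatives, 1886 kept their side of the threshold, 41 passed newly, 10 no longer passed, and none that had passed changed sign. The sign changed for 15 of 130 described genes and for the medians of 21 of 37 lists, among them the interferon, endothelial, stem cell surface and Notch target lists. The stem cell factor, stromal and macrophage medians kept their signs. The cause of these changes was not tested. Low signal limits what can be seen of the T-lineage, B-lineage and mast cell genes.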
